A study of Mus musculus with 15 samples.

Results

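The genes described here are 39 members of the interferon response and of antigen presentation by MHC class I. They were chosen by name, and the probes whose gene name in the scanner files is a member were taken, which gave 60 probes among 41174. The 39 members are among 27343 named genes on the array. Where a gene had several probes, the one with the highest mean was taken. The study profiled expandable hepatocytes, which are mouse liver cells that grow in culture, on 15 Agilent 1-colour arrays. The cells in expansion medium are called eHep, and mHep was taken to mean the same cells in differentiation medium, since the labels do not spell the name out. Both were cultured for 21 days. The lines came from 3 mice: 129S1-No1 (strain 129S1, 3 eHep and 3 mHep arrays), C57B6-No1 (strain C57B6, 3 and 3) and 129S1-No2 (strain 129S1, 1 and 1). Hepatocytes freshly isolated from C57B6 mice by collagenase perfusion gave 1 array. The labels name liver as the origin of all cells and give no infection, interferon treatment, genetic change, age or sex for any group. For 129S1-No2, the source name of the mHep array says eHep, and its title decided the group. Repeat arrays of a mouse are not further mice, so p-values within a mouse measure only the spread between repeat arrays. That spread was pooled over the 12 arrays of 129S1-No1 and C57B6-No1, so a p-value within 1 of them also carries the other's spread. Strain and mouse cannot be told apart for C57B6-No1.

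Cells detect foreign RNA or DNA with sensors such as the RIG-I-like helicases, and the signal leads to secretion of type I interferons. Interferon binds its receptor on the same or a neighbouring cell, and JAK kinases then activate STAT proteins, among them STAT2, which join IRF9 and bind a short DNA element, the interferon-stimulated response element (ISRE), before many antiviral genes. Interferon gamma raises the immunoproteasome, the TAP peptide transporter and MHC class I, with which a cell shows peptides to T cells. Hepatocytes carry these receptors and answer both kinds of interferon.

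Levels are given as log2 signal minus the array's own 75th percentile, so 0 is a bright gene and a step of 1 is a doubling. Of the 39 members, 23 were well above background on all 15 arrays. Mx1, an antiviral GTPase, was not well above background (dark) on any array, Nlrc5 was above it on 1 of 14 cultured arrays and Ifi44 on 2, so these 3 were not tested between cultured groups. Against the primary array Mx1 and Ifi44 were not tested. The share of probes well above background was 48.8% to 61.9% on the cultured arrays and 36.3% on the primary array. The hepatocyte marker Alb, the gene of serum albumin, was at 11.58 on the primary array, at 7.45 ± 0.60 (SD, n = 3 mice) in mHep and at -1.61 ± 2.87 in eHep. The median level over the 39 members was 1.22 on the primary array. It was 0.26, 0.38 and 0.14 on the eHep arrays of 129S1-No1, -1.21, -1.23 and -2.06 on those of C57B6-No1, and -2.42 on that of 129S1-No2. In mHep the 3 arrays of 129S1-No1 gave -0.39, -0.04 and -0.39, those of C57B6-No1 gave 0.90, 0.64 and -0.56, and that of 129S1-No2 gave -0.98. In eHep, 129S1-No1 therefore stood highest on all of its arrays, and in mHep the highest arrays were replicates 1 and 2 of C57B6-No1. Replicate 3 of C57B6-No1 was the lowest of its group in both media. Per the file headers, it was scanned with the primary array and both arrays of 129S1-No2 in an earlier session than the other arrays. That session used a different scanner.

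**Figure D1:**
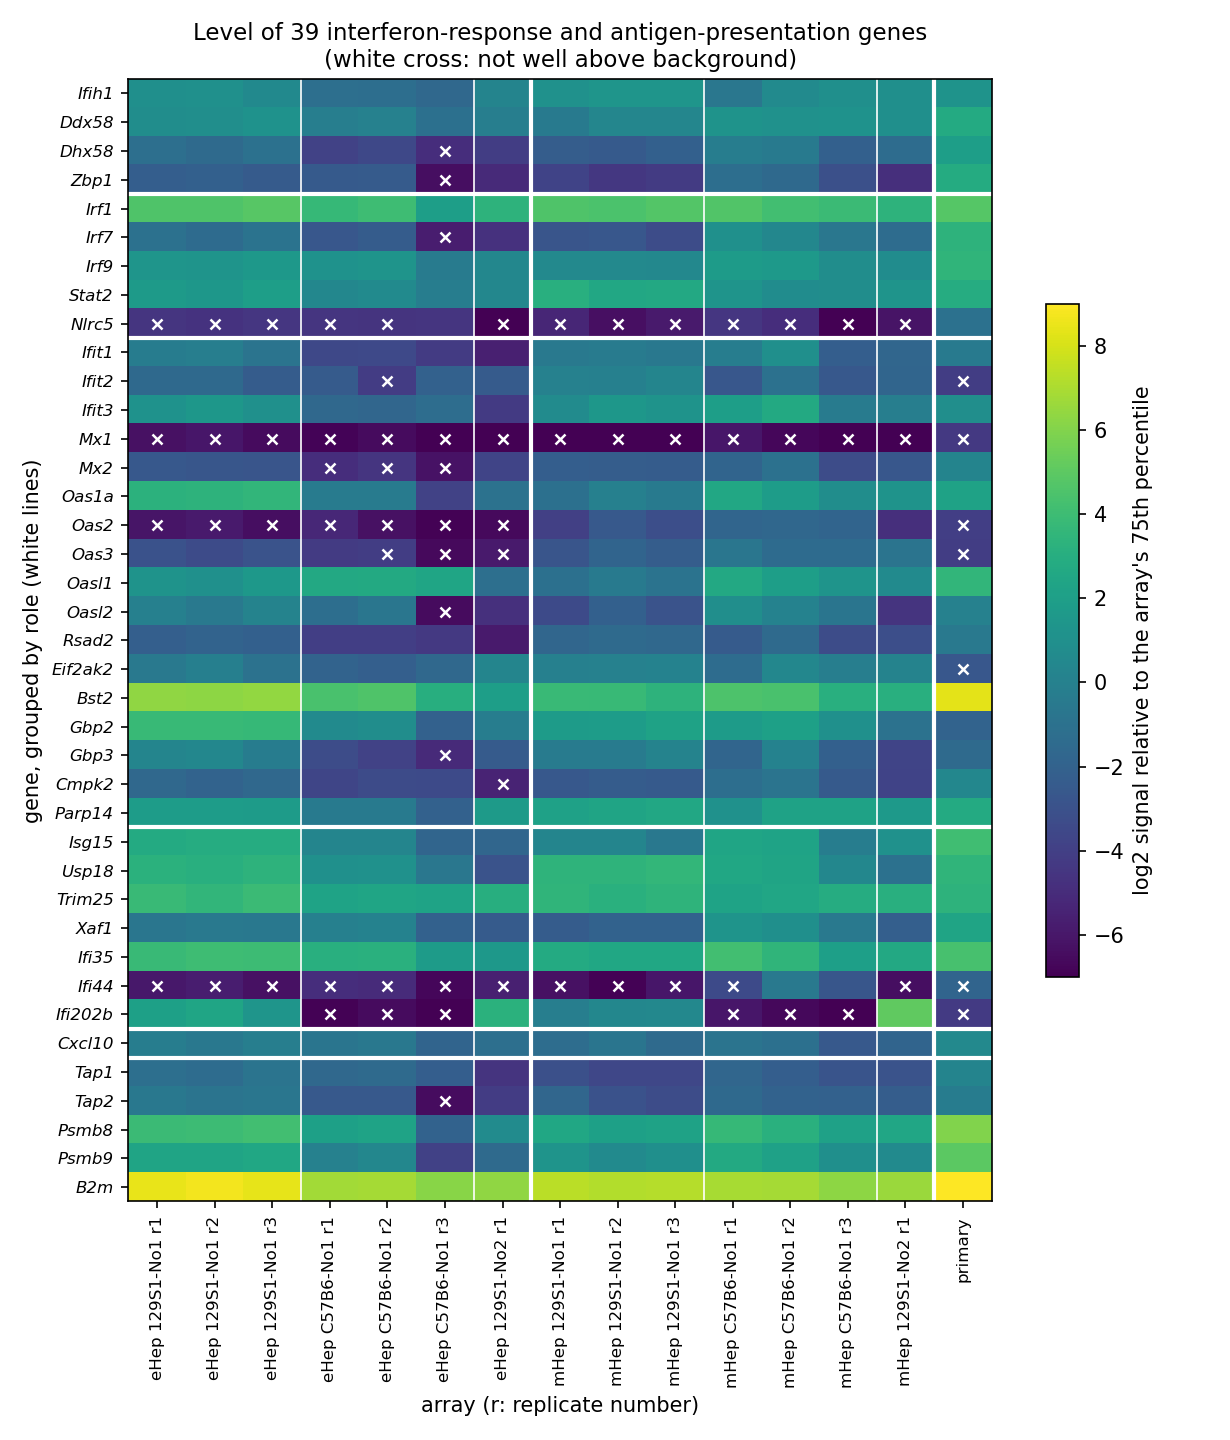
Level of the 39 members on each of the 15 arrays, as log2 signal relative to the array's 75th percentile, with genes in rows by role and arrays in columns. White crosses mark readings not well above background, which fall on all 15 arrays for Mx1; B2m is the brightest row, and most members are brighter in the eHep arrays of 129S1-No1 than in those of the other mice.

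Since the ISRE is the DNA element through which many of these genes answer interferon, the upstream sequence of the members that hold it is shown beside the values that follow. RefSeq promoter windows of the GRCm38.p6 build matched 30 of the 39 members. Dhx58, Zbp1, Nlrc5, Mx1, Mx2, Oas2, Parp14, Usp18 and Tap2 had no entry. The 250 bases before the annotated start were searched on both strands. The motif searched was GAAANNGAAA, which reads TTTCNNTTTC on the other strand, with overlapping matches counted. It was found in 12 of the 30 members (40.0%), against 2.98% of 32851 windows and 3.46% of 27025 genes. These are matches of letters and say nothing of binding. The stretches below are from 7 members whose values the results turn on, each read 5′ to 3′ on the gene's own strand, and capitals mark the ISRE core. They come from chr4:156200845-156200926 (Isg15, minus strand), chr19:34640755-34640843 (Ifit1, plus strand), chr19:34583343-34583446 (Ifit3, plus strand), chr5:120907526-120907575 (Oas1a, minus strand), chr8:71537557-71537632 (Bst2, minus strand), chr3:142620574-142620643 (Gbp2, plus strand) and chr2:122147518-122147587 (B2m, plus strand).
Isg15: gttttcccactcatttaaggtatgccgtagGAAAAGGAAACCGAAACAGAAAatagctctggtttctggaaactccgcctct
Ifit1: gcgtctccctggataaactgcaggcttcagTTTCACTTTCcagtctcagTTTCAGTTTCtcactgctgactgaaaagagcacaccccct
Ifit3: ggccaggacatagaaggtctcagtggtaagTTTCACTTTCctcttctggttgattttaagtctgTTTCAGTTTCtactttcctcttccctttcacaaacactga
Oas1a: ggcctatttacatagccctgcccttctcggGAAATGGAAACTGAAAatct
Bst2: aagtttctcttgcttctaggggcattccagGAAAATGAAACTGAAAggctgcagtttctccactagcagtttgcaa
Gbp2: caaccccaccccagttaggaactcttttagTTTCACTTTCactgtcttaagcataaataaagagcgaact
B2m: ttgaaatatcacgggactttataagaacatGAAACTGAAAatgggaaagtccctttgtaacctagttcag
The array probes themselves lie elsewhere in these genes, on the mm9 build per the file headers: that of Isg15 (NM_015783) on chromosome 4 from 155573922 to 155573981, that of Oas1a (NM_145211) on chromosome 5 from 121348348 to 121348407 and that of B2m (NM_009735) on chromosome 2 from 121978401 to 121978460. Isg15 held 3 overlapping cores between 78 and 57 bases before its start. Oas1a and Bst2 held 2 overlapping cores each, and Ifit1 and Ifit3 held 2 separate ones. The members with the core and without it were not set against each other by a test.

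**Figure D2:**
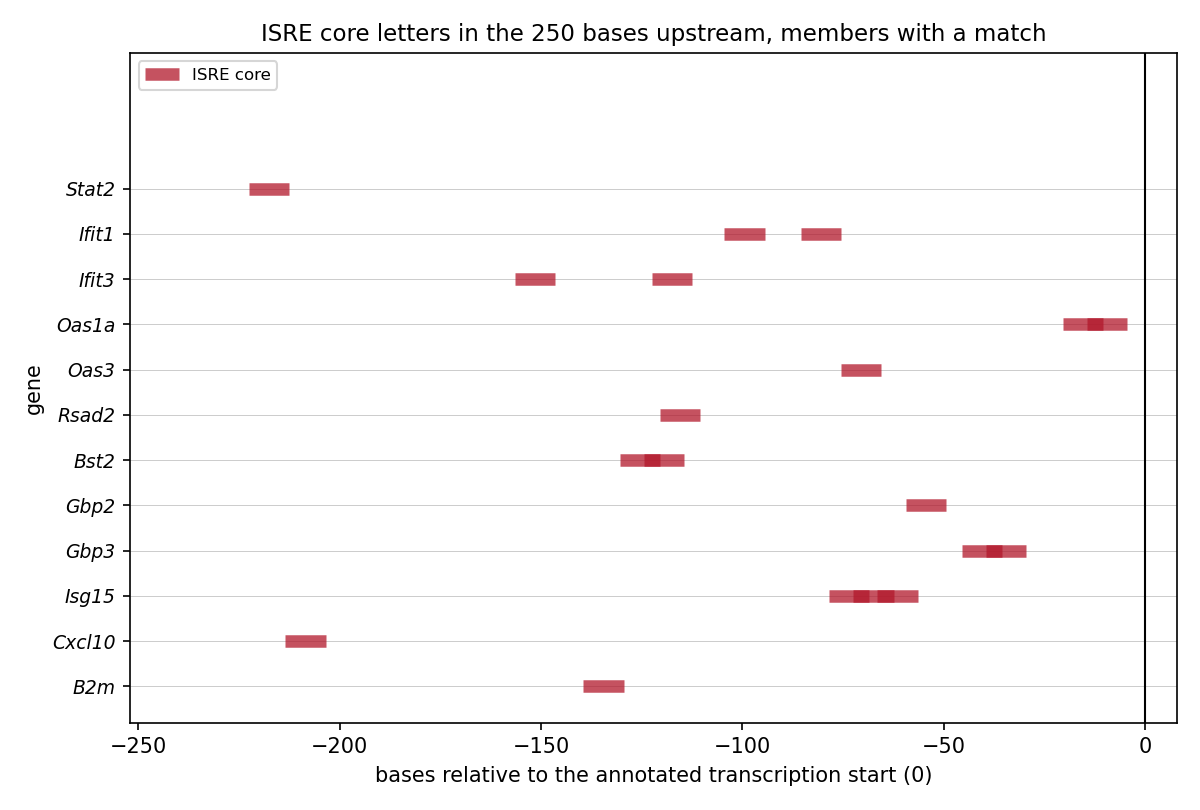
Position of the ISRE core (red) in the 250 bases before the annotated start, for the members that hold a match; the horizontal axis gives bases relative to the start and each row is a gene. The matches lie between 222 bases (Stat2) and 5 bases (Oas1a) before the start, in 12 members.

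The comparison of eHep between mice asks whether cells in the same expansion medium differed in these genes. In limma's fit over 12 arrays, 36 of the 39 members were bright enough to test. Of these, 26 were lower in the eHep of C57B6-No1 than in that of 129S1-No1, against 14.9% of all genes tested, and 1 was higher, against 12.5%. The 26 include Ifi202b, which entered the test only through 129S1-No1, where it is high. The median difference over all 39 members was -1.91, against -0.19 over the genes tested. The eHep of 129S1-No2, a mouse of the same strain as 129S1-No1, were also lower than those of 129S1-No1 in 36 of 39 members, with a median difference of -2.55 against -0.58 over tested genes. The array of 129S1-No2 lay below all 3 of 129S1-No1 in 36 members too, against 58.4% of tested genes. That mouse has 1 array per medium and no test within it. Its arrays were scanned in the earlier session and those of 129S1-No1 in the later, on different scanners. Mouse and scan thus cannot be told apart in this comparison. In 28 of the 39 members all 3 eHep arrays of 129S1-No1 lay above the other 4 eHep arrays, as they did in 29.3% of the tested genes.

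Oas1a makes 2-5A, the messenger that switches on RNase L. The eHep arrays of 129S1-No1 read 3.30, 3.37 and 3.55, those of C57B6-No1 read -0.34, -0.32 and -3.86, and 129S1-No2 read -0.999. The 2 groups of 3 did not overlap, and C57B6-No1 was lower by a log2 difference of -4.91 ± 0.82 (SE, adjusted p = 0.00129). Gbp2 encodes a guanylate-binding GTPase that acts on the membranes of parasites and bacteria. It read 3.76, 3.77 and 3.73 in the eHep of 129S1-No1, 0.62, 0.83 and -2.01 in C57B6-No1 and -0.22 in 129S1-No2, a difference of -3.94 ± 0.61 (adjusted p = 0.000839) between the first 2 mice. The related Gbp3 differed by -4.21 ± 0.58 (adjusted p = 0.000348). The ubiquitin-like protein gene Isg15 read 2.81, 2.94 and 2.90 in 129S1-No1 and 0.28, 0.29 and -1.78 in C57B6-No1, with -1.72 in 129S1-No2. No array of C57B6-No1 reached those of 129S1-No1, and the difference was -3.29 ± 0.71 (adjusted p = 0.00618). Usp18, the protease that removes ISG15 and dampens the receptor, differed by -2.70 ± 0.57 (adjusted p = 0.00539).

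Antigen presentation genes followed the same order. Psmb9, an immunoproteasome subunit, read 2.31, 2.36 and 2.52 in the eHep of 129S1-No1, 0.01, 0.39 and -3.93 in C57B6-No1 and -1.49 in 129S1-No2, and differed by -3.57 ± 0.92 (adjusted p = 0.0152). B2m, the light chain of MHC class I, read 8.46, 8.69 and 8.41, then 6.80, 6.84 and 6.18, and 6.34 in 129S1-No2. It was lower in C57B6-No1 by -1.91 ± 0.25 (adjusted p = 0.000223), and 129S1-No2 lay within the range of C57B6-No1. In all, 4 of 5 antigen presentation members, 12 of 17 antiviral effectors, 3 of 5 transcription factors, 3 of 4 sensors and 4 of 7 members of the ISG15 system and its regulators were lower. Oasl1, an inhibitor of Irf7 translation, was the member that was higher in C57B6-No1, by 1.35 ± 0.33 (adjusted p = 0.0106), at 2.65, 2.74 and 2.38 against 1.21, 1.00 and 1.51.

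Replicate 3 of C57B6-No1 stood below its group in eHep. In that library 34 of 39 members lay below both other replicates, against 60.6% of tested genes, with a median gap of -1.33 against -0.33. The gap was widest in Oasl2 (-5.54), Psmb8 (-4.17) and Psmb9 (-4.13). With the arrays of the later scan only, which leaves out replicate 3 of C57B6-No1 in both media, 27 members were lower and 2 were higher, with a median difference of -1.51, while 34% of tested genes passed.

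Markers of other cells moved with this difference, and their part in it was not tested. The summed linear level of 9 macrophage markers was 44.1 to 50.1 in the eHep of 129S1-No1 and 5.54 to 34.0 in those of C57B6-No1. Most of that sum was Cd14, at 5.43 ± 0.095 (SD, n = 3 arrays) and 4.04 ± 1.51, which did not pass. Of the 9, 2 were lower in C57B6-No1. Lyz2, dark on its 3 eHep arrays there, was at least 24.6-fold lower (adjusted p = 4.14e-05), and Csf1r was lower by -3.77 ± 0.34 (adjusted p = 2.01e-05). Csf1r was at 0.19 ± 0.21 (SD, n = 3 arrays) in the eHep of 129S1-No1 and -3.59 ± 0.39 in those of C57B6-No1, and 129S1-No2 read -5.62. The defining Kupffer cell genes Adgre1 and Clec4f were not well above background on any of the 14 cultured arrays. All 5 hepatocyte markers were also lower in the eHep of C57B6-No1, among them Alb by -5.30 ± 0.29 (adjusted p = 5.91e-07). Other markers were higher in the eHep of C57B6-No1: of 5 biliary markers Spp1 by 3.43 ± 0.40 (adjusted p = 0.000117) and Krt19 by 0.86 ± 0.27 (adjusted p = 0.0383), while Krt7 was lower by -3.28 ± 0.53 (adjusted p = 0.00105). The stellate cell markers Colec11 and Reln and the endothelial marker Kdr were higher there too, at least 2.93-fold, 1.59-fold and 2.39-fold, and all 3 were dark in the eHep of 129S1-No1. They entered the test only through C57B6-No1, where they are high, so these values are a description. Tcf4, listed as a plasmacytoid dendritic cell marker, was higher by 2.36 ± 0.41 (adjusted p = 0.0016). In bulk RNA, fewer cells of a type and less RNA per cell cannot be told apart.

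**Figure D3:**
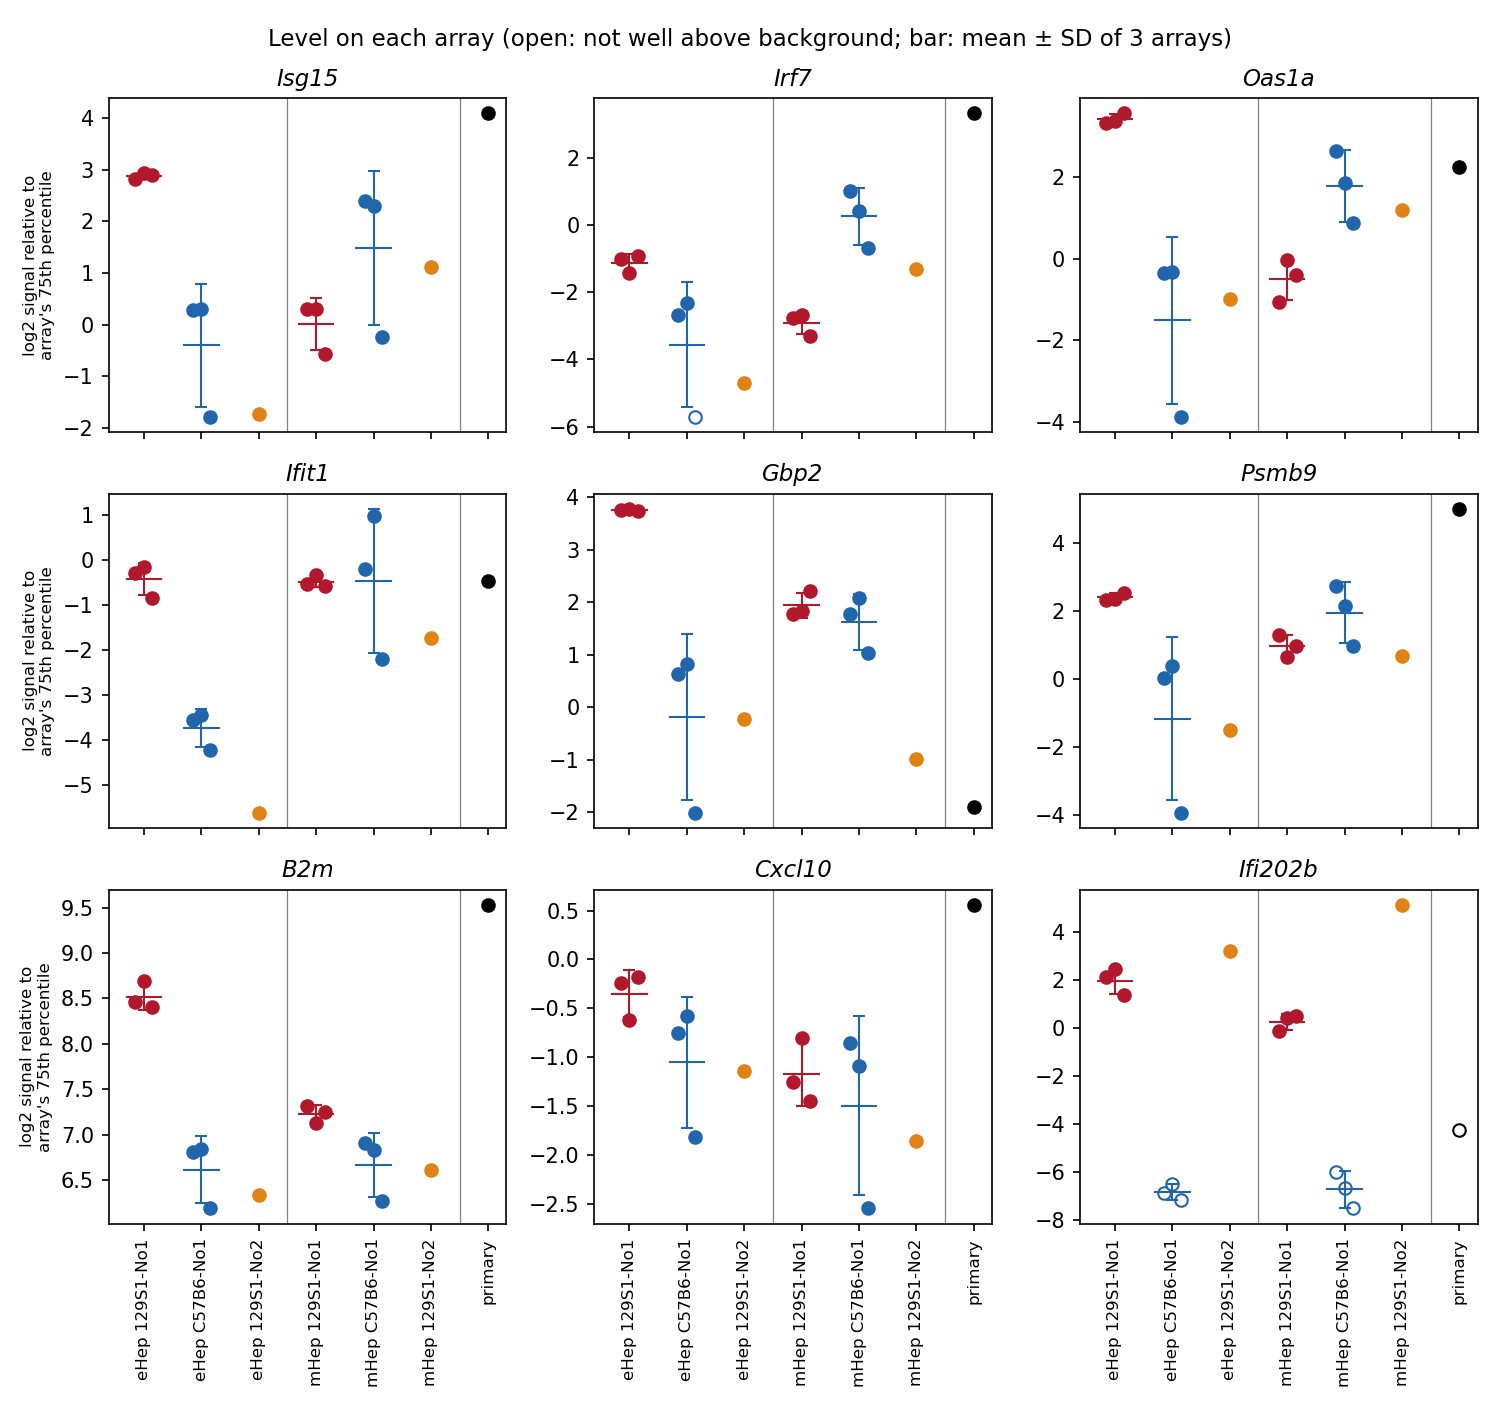
Levels of 9 members on each array, by medium and mouse, as log2 signal relative to the array's 75th percentile; open circles are readings not well above background, and bars give the mean ± SD of 3 arrays. In eHep the points of 129S1-No1 (red) lie above those of C57B6-No1 (blue) for the members shown except Cxcl10, whose points overlap, and Ifi202b is above background only in the 129S1 mice (red and orange).

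Within C57B6-No1, 16 of the 36 members tested rose from eHep to mHep, against 11.8% of the tested genes, and none fell, against 13.4%. The median change over all 39 members was 1.78, against -0.09 over tested genes. Antiviral effectors made up 11 of the 16. Ifit1, which binds foreign RNA that lacks the cap methylation of the host, went from -3.55, -3.45 and -4.21 in eHep to -0.21, 0.97 and -2.20 in mHep, so no mHep array overlapped with eHep. It rose by 3.26 ± 0.62 (adjusted p = 0.00316). Ifit3, its partner, rose by 2.98 ± 0.61 (adjusted p = 0.00498), Parp14 by 2.82 ± 0.43 (adjusted p = 0.000923) and Rsad2, the enzyme viperin, by 1.78 ± 0.36 (adjusted p = 0.00491). Oas2 and Mx2 were dark on all eHep arrays of this mouse. With those readings raised to the background limit of their array, Oas2 rose at least 7.22-fold (adjusted p = 4.94e-05) and Mx2 at least 5.86-fold (adjusted p = 0.00147). Oas2, dark on the eHep arrays of all 3 mice, entered the test only through mHep, where it is high, so its call supports nothing. Mx2 entered through the eHep of 129S1-No1 as well.

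Among the sensors of C57B6-No1, the RNA helicases Dhx58 (3.15 ± 0.47, adjusted p = 0.000771), Ifih1 (1.65 ± 0.36, adjusted p = 0.00675) and Ddx58 (1.56 ± 0.31, adjusted p = 0.00405) rose. Ddx58 encodes RIG-I and Ifih1 encodes MDA5. Irf7, the factor that amplifies interferon production, read -2.67, -2.32 and -5.70 in eHep and 1.01, 0.42 and -0.68 in mHep, and rose by 3.81 ± 0.76 (adjusted p = 0.00401). Of the antigen presentation members Psmb9 rose, by 3.12 ± 0.92 (adjusted p = 0.0295). Tap2 (2.01 ± 0.88, adjusted p = 0.127) and Psmb8 (2.22 ± 0.91, adjusted p = 0.105) did not pass, and B2m was at 6.90, 6.83 and 6.26 in mHep, a difference of 0.06 ± 0.25 (adjusted p = 0.914). Isg15 did not pass either, at 1.89 ± 0.71 (adjusted p = 0.0793). Without replicate 3 of C57B6-No1 in either medium, 23 members rose and the median change was 1.25, while 31.6% of tested genes passed in either direction. The eHep and mHep arrays left lay on different slides, so medium and slide cannot be told apart there. Macrophage markers moved here as well, with Lyz2 at least 4.81-fold higher in mHep (adjusted p = 0.00296), Cd14 higher by 2.69 and Cd68 lower by -1.42 ± 0.36 (adjusted p = 0.0146), and their part was not tested.

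Within 129S1-No1, 10 of the 36 tested members fell, against 27.1% of tested genes, and 3 rose, against 17.3%, so the share that fell was near that of other genes. Per the file headers, all eHep arrays of this mouse shared a slide and all mHep arrays shared a different slide. Medium and slide therefore cannot be told apart within this mouse. All mHep arrays lay below all eHep arrays for 24 of the 39 members, against 50.2% of tested genes, and above them for 10, against 28.2%. The median change over the 39 members was -0.90, against -0.38 over tested genes and -0.78 over all genes. With arrays scaled to the probes detected on all arrays, the member median was -0.49 and that of tested genes was 0.02. The largest fall was in Oas1a, from 3.30, 3.37 and 3.55 in eHep to -1.07, -0.04 and -0.39 in mHep, by -3.91 ± 0.82 (adjusted p = 0.00394). Isg15 fell from 2.81, 2.94 and 2.90 to 0.31, 0.30 and -0.57, by -2.87 ± 0.71 (adjusted p = 0.00912). Bst2, the tether that holds budding virus at the cell surface, went from 6.33, 6.28 and 6.43 to 3.84, 3.80 and 3.37 and fell by -2.68 ± 0.45 (adjusted p = 0.00105). For these 3 genes no mHep array reached the eHep range.

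Tap1, a chain of the peptide transporter, fell by -2.31 ± 0.33 (adjusted p = 0.000355) in 129S1-No1, and B2m fell by -1.29 ± 0.25 (adjusted p = 0.00225), from 8.46, 8.69 and 8.41 to 7.31, 7.13 and 7.24. Oasl1, Ifi202b, Gbp2, Ifi35 and Ddx58 fell by 0.90 to 2.06. The members that rose were Stat2, which joins Irf9 at the ISRE (1.10 ± 0.27, adjusted p = 0.00872), Ifit2 (1.89 ± 0.57, adjusted p = 0.0213) and Oas2, at least 1.75-fold (adjusted p = 0.000566). Oas2 was dark on all eHep arrays and entered the test only through mHep, where it is high, so its call supports nothing. Ifit1 did not pass, at -0.29, -0.15 and -0.84 in eHep and -0.53, -0.34 and -0.58 in mHep, a difference of -0.06 ± 0.62 (adjusted p = 0.945). With the later scan only, 22 members fell and 4 rose in 129S1-No1, while 67.2% of the tested genes passed. Macrophage markers fell as well, Cd68 by -2.69 ± 0.36 (adjusted p = 0.000265), Lyz2 by -1.44 ± 0.51 (adjusted p = 0.04) and Csf1r by -0.95 ± 0.34 (adjusted p = 0.0429). So did 4 of 5 biliary markers, with Krt19 at -3.58 ± 0.27 (adjusted p = 7.01e-06) and Sox9 at -2.37 ± 0.32 (adjusted p = 0.000298). Their part was not tested.

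The change itself differed between these mice, though in 129S1-No1 medium and slide cannot be told apart. In C57B6-No1 only replicate 3 had both media on the same slide. In 19 of 36 tested members the change from eHep to mHep was more positive in C57B6-No1 than in 129S1-No1, against 10.3% of tested genes, and in none was it more negative, against 6.29%. The median difference of the changes was 2.45 over all 39 members, against 0.26 over tested genes. It was 7.18 ± 1.16 (adjusted p = 0.00266) for Oas1a, whose C57B6-No1 arrays went from -0.34, -0.32 and -3.86 to 2.62, 1.84 and 0.86. For Irf7 it was 5.60 ± 1.07 (adjusted p = 0.00642), as the 129S1-No1 arrays went from -1.02, -1.43 and -0.92 to -2.77, -2.69 and -3.30. Oas1a and Irf7 thus crossed over, with 129S1-No1 above C57B6-No1 in eHep and below it in mHep. In mHep the difference passed for Irf7 but not for Oas1a (2.27 ± 0.82, adjusted p = 0.0626).

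Isg15 had a difference of 4.76 ± 1.01 (adjusted p = 0.0106), with mHep levels of 2.40, 2.29 and -0.23 in C57B6-No1. Dhx58 read -1.18, -1.46 and -1.01 in the eHep and -2.28, -2.44 and -2.10 in the mHep of 129S1-No1, and -3.82, -3.51 and -4.91 then -0.24, -0.48 and -2.06 in C57B6-No1, a difference of 4.20 ± 0.67 (adjusted p = 0.00239). Psmb9 went to 1.30, 0.64 and 0.96 in the mHep of 129S1-No1 and to 2.72, 2.15 and 0.98 in that of C57B6-No1, a difference of 4.55 ± 1.30 (adjusted p = 0.0377). In mHep the ranges of both mice overlapped for Psmb9. Gbp2 reached 1.78, 1.83 and 2.22 in 129S1-No1 and 1.78, 2.07 and 1.03 in C57B6-No1, from eHep means that were 15.3-fold apart, and its difference was 3.62 ± 0.87 (adjusted p = 0.0189). Oasl2, an antiviral OAS-like protein, read -0.01, -0.55 and 0.14 in eHep and -3.43, -2.12 and -2.92 in mHep of 129S1-No1, and -1.21, -0.74 and -6.51 then 0.90, 0.09 and -0.77 in C57B6-No1. Its difference of 5.58 ± 1.71 (adjusted p = 0.0483) rested in part on the C57B6-No1 eHep array at -6.51, which was not well above background. Ifit1 differed by 3.32 ± 0.88 (adjusted p = 0.028).

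By role, the difference of the changes passed in 11 of 17 antiviral effectors, 3 of 5 antigen presentation genes, 2 of 4 sensors, 2 of 7 in the ISG15 group and 1 of 5 transcription factors. Among the 30 members with a promoter window it passed in 9 of the 12 with an ISRE core and in 7 of the 18 without. Those counts describe the members and were not tested. The count of 19 depended on single arrays: leaving out 1 array at a time gave 8 to 27 members, with the lowest count without replicate 1 of 129S1-No1 in eHep and the highest without replicate 3 of C57B6-No1 in mHep. In those fits 9.55% and 31.4% of tested genes passed. Macrophage markers moved with it, with Csf1r at 1.78 ± 0.48 (adjusted p = 0.0307) and Lyz2 also past the test, though dark in the eHep of C57B6-No1. So did Alb at 4.14 ± 0.41 (adjusted p = 0.000162) and the biliary markers Krt19 at 4.07 ± 0.39 (adjusted p = 0.000135) and Krt7 at 3.84 ± 0.75 (adjusted p = 0.00724). Their part in it was not tested.

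In mHep the levels of C57B6-No1 and 129S1-No1 were closer. Of 36 tested members 6 were higher in C57B6-No1, against 15.8% of tested genes, and 5 were lower, against 12%, so both shares were near those of other genes. The 5 include Ifi202b, which entered the test only through 129S1-No1, where it is high. The median difference over the 39 members was 0.57, against -0.02 over tested genes. Irf7 was higher by 3.16 ± 0.76 (adjusted p = 0.00963), Oasl1 by 2.77 ± 0.33 (adjusted p = 9.93e-05) and Xaf1, a pro-apoptotic protein gene, by 2.69 ± 0.58 (adjusted p = 0.00535). Stat2 was lower by -1.84 ± 0.27 (adjusted p = 0.000484) and Ifit2 by -2.18 ± 0.57 (adjusted p = 0.0151). With the later scan only, 20 were higher and 6 lower, while 49.6% of tested genes passed. Without replicate 3 of C57B6-No1 in mHep 13 were higher and 5 lower, while 34.8% passed.

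Over the 3 mice, none of the 36 members tested passed between mHep and eHep in limma's fit on mouse means with mouse as a block, against 1.38% of tested genes higher and 0.452% lower in mHep. The median difference over the 39 members was 0.62, against -0.10 over tested genes, and 29 had a positive difference. By mouse the median change was 1.78 for C57B6-No1, 1.17 for 129S1-No2 and -0.90 for 129S1-No1, so the other 129S1 mouse lay on the side of C57B6-No1. The mHep mean was the higher in 10 members of 129S1-No1, 35 of C57B6-No1 and 32 of 129S1-No2. In 21 members it was higher in C57B6-No1 and 129S1-No2 and lower in 129S1-No1. It was higher in all 3 mice for 8 members and lower in all 3 for 1, the chemokine gene Cxcl10. The lowest adjusted p was that of Oas2, 0.0716, for a level at least 3.00-fold higher in mHep, and Oas2 entered the test only through mHep.

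Cxcl10, which draws T cells through CXCR3, read -0.24, -0.62 and -0.18 in the eHep of 129S1-No1, -0.76, -0.58 and -1.82 in C57B6-No1 and -1.15 in 129S1-No2. In mHep it read -1.26, -0.80 and -1.45, then -0.85, -1.09 and -2.55, and -1.85 in 129S1-No2. The ranges overlapped in C57B6-No1, and the difference over mice was -0.66 ± 0.37 (adjusted p = 0.48). Without 129S1-No1, 12 members passed over the remaining 2 mice, all higher in mHep, against 5.69% of tested genes. Within the earlier scan, which holds C57B6-No1 replicate 3 and 129S1-No2, 13 did, against 10.4%. With the 14 arrays as samples and mouse as a term, 11 passed, all higher, but 34.4% of tested genes did too.

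**Figure D4:**
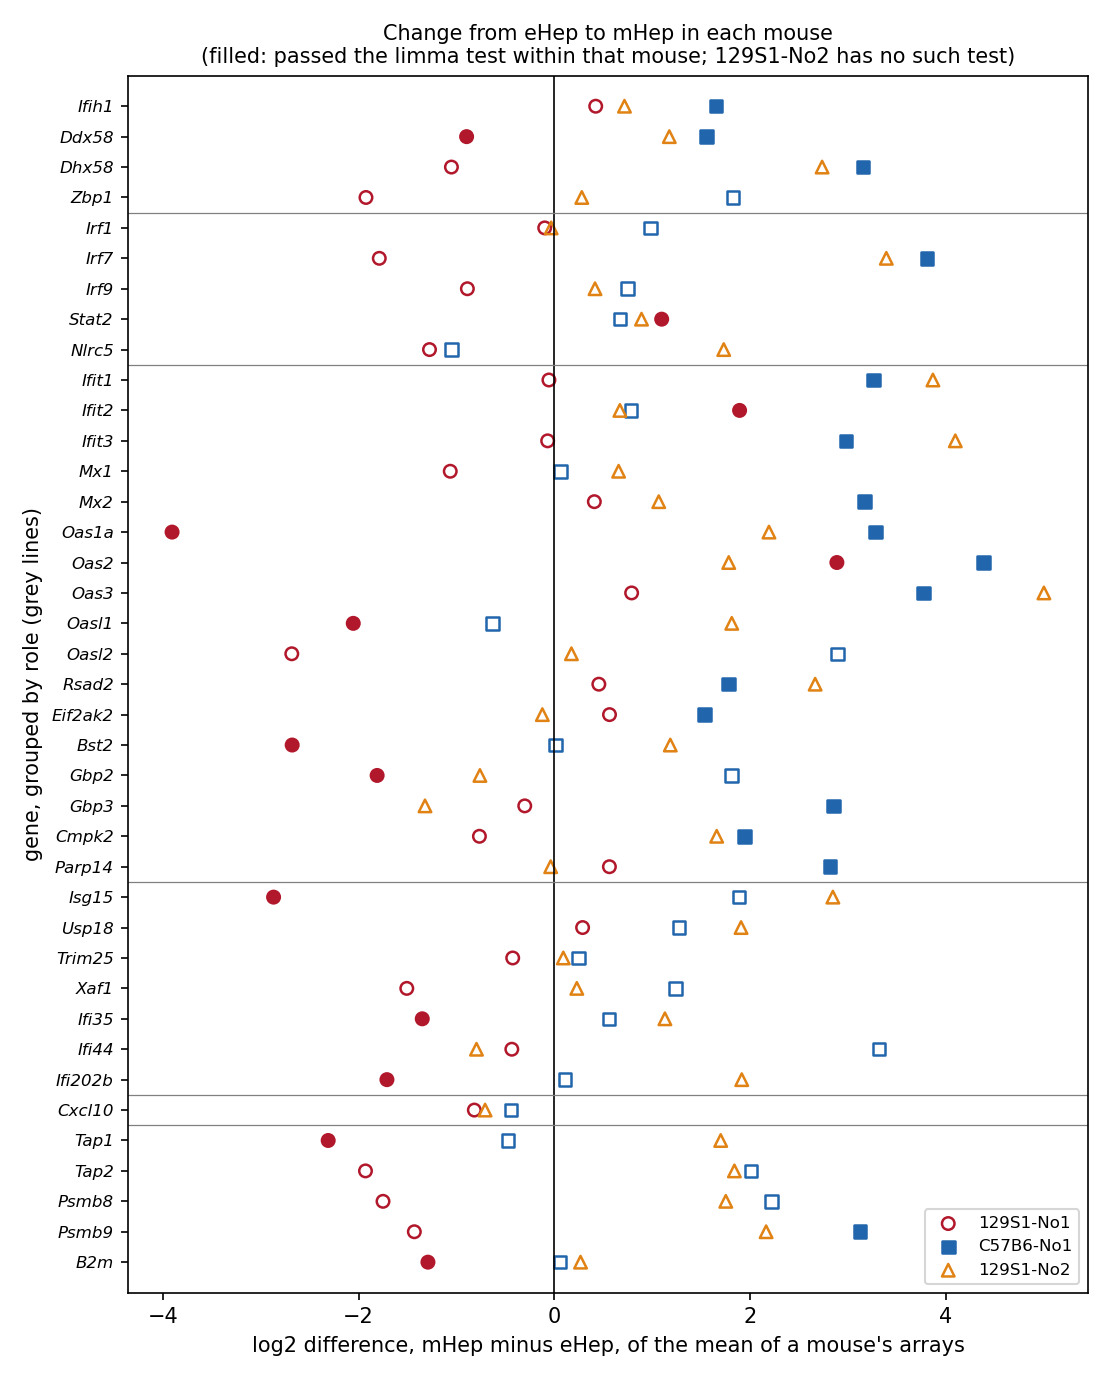
Change from eHep to mHep of each member in each mouse, as the log2 difference of the mean of its arrays; filled symbols passed limma's test within that mouse, and 129S1-No2 (triangles), with 1 array per medium, has no such test. Circles (129S1-No1) lie below 0 for 29 of 39 members, while squares (C57B6-No1) lie above 0 for 35 and triangles for 32.

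The comparison with primary hepatocytes sets the cultured cells beside the cells they stand for. It uses a single primary array, for which the fit assumes the spread of the mouse means. Of 37 tested members 5 were lower in eHep than on the primary array, against 9.39% of tested genes, and none was higher, against 5.61%. The median difference over 39 members was -2.64, against -0.19 over tested genes. In mHep 1 was lower, against 5.97% of tested genes, and none was higher, against 4.01%, with a median of -2.06 against -0.34. The primary array lay above all 7 eHep arrays for 27 of the 39 members, as it did for 31.4% of the genes tested on 12 arrays, and above all 14 cultured arrays for 22, against 26.4%.

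Zbp1, a sensor of Z-form nucleic acid that triggers cell death, was at 2.87 on the primary array. In eHep it read -2.21, -2.07 and -2.38, then -2.48, -2.40 and -6.39, and -5.09 in 129S1-No2, and in mHep -3.77, -4.42 and -4.24, then -1.19, -1.51 and -3.11, and -4.81. It was lower by -6.56 ± 1.40 in eHep (adjusted p = 0.0252) and by -6.50 ± 1.40 in mHep (adjusted p = 0.0348). All 14 cultured arrays lay below the primary array. Irf7 was at 3.32 on the primary array, and its eHep arrays, with -4.71 in 129S1-No2, were lower by -6.45 ± 1.60 (adjusted p = 0.0408). In mHep, where 129S1-No2 read -1.32, the difference was -4.65 ± 1.60 (adjusted p = 0.121).

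Dhx58 was at 1.96 on the primary array and at -4.08 in the eHep and -1.34 in the mHep of 129S1-No2, and was lower in eHep by -5.09 ± 1.23 (adjusted p = 0.0374). Mx2, an antiviral GTPase, was at 0.22 on the primary array, at -2.61, -2.71 and -2.79 in the eHep of 129S1-No1, at -4.93, -4.54 and -6.21 in C57B6-No1 and at -3.72 in 129S1-No2, a difference of -4.11 ± 0.95 (adjusted p = 0.0336). Its C57B6-No1 readings were not well above background, and with such readings raised to the limit Mx2 was at least 14.9-fold lower. In mHep Mx2 read -2.22, -2.30 and -2.37, then -1.83, -1.06 and -3.28, and -2.65. Irf9, the DNA-binding partner of STAT2, was at 3.46 on the primary array, against 1.34, 1.30 and 1.55 in the eHep of 129S1-No1, 1.14, 1.30 and -0.33 in C57B6-No1 and 0.38 in 129S1-No2. It was lower by -2.64 ± 0.66 (adjusted p = 0.0415) in eHep and differed by -2.55 ± 0.66 (adjusted p = 0.0588) in mHep.

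Other members differed by as much without passing. Bst2 was at 8.36 on the primary array against 1.94 to 6.43 in eHep (-4.27 ± 1.50, adjusted p = 0.108), and Psmb9 at 4.99 (-5.08 ± 1.50, adjusted p = 0.0694). B2m was at 9.53 on the primary array (-2.37 ± 0.92, adjusted p = 0.134), above all cultured arrays. Gbp2 stood apart, at -1.91 on the primary array and at or above -0.98 on all cultured arrays but 1, the eHep replicate 3 of C57B6-No1 at -2.01, with a difference of 3.02 ± 1.82 (adjusted p = 0.309). Eif2ak2, the kinase PKR that halts translation, was not well above background on the primary array and was so on all 14 cultured arrays. Nlrc5, the transactivator of MHC class I genes, was at -1.05 on the primary array and well above background on 1 of 14 cultured arrays. It was at least 13.4-fold lower in eHep and did not pass (adjusted p = 0.0637). It entered the test only through the primary array, where it is high, so this is a description. Against the arrays of C57B6-No1 alone, the strain of the primary cells, 20 members were lower in eHep and in mHep 7 were lower and 2 higher, with 32.7% of tested genes passing in eHep and 26.7% in mHep, so the mHep count is near that of other genes. Without C57B6-No1 none passed in either medium, against 2.83% of tested genes in eHep and 0.672% in mHep. The member medians were then -2.51 in eHep and -2.21 in mHep. Without 129S1-No1 14 passed in eHep and 3 in mHep, against 15.7% and 10.3% of tested genes.

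The primary array also carried markers of other liver cells, and their part in these differences was not tested. Of 9 macrophage markers, 3 were not well above background on any cultured array, and Clec4f and Adgre1 of the Kupffer cell were at 1.19 and -1.81 on the primary array. Clec4f was at least 65.7-fold higher there than in eHep, and it entered the test only through the primary array. The summed linear level of 8 endothelial markers was 15.9 on the primary array and 0.12 to 0.62 in eHep. That of 10 lymphocyte and NK cell markers was 1.71, against 0.10 to 0.79, and Nkg7 and Gzma were well above background on the primary array alone. The macrophage sum was 10.6 on the primary array, against 5.54 to 50.1 in eHep and 30.2 to 179 in mHep, but in the cultured cells it was mostly Cd14. Cd14 was at -1.11 on the primary array and was higher in eHep by 5.66. The sum therefore does not describe the other markers. Of the 9, 1 was higher and 2 were lower in eHep, and Lyz2 was at 2.56 on the primary array and -4.15 ± 3.80 (SD, n = 3 mice) in eHep.

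**Figure D5:**
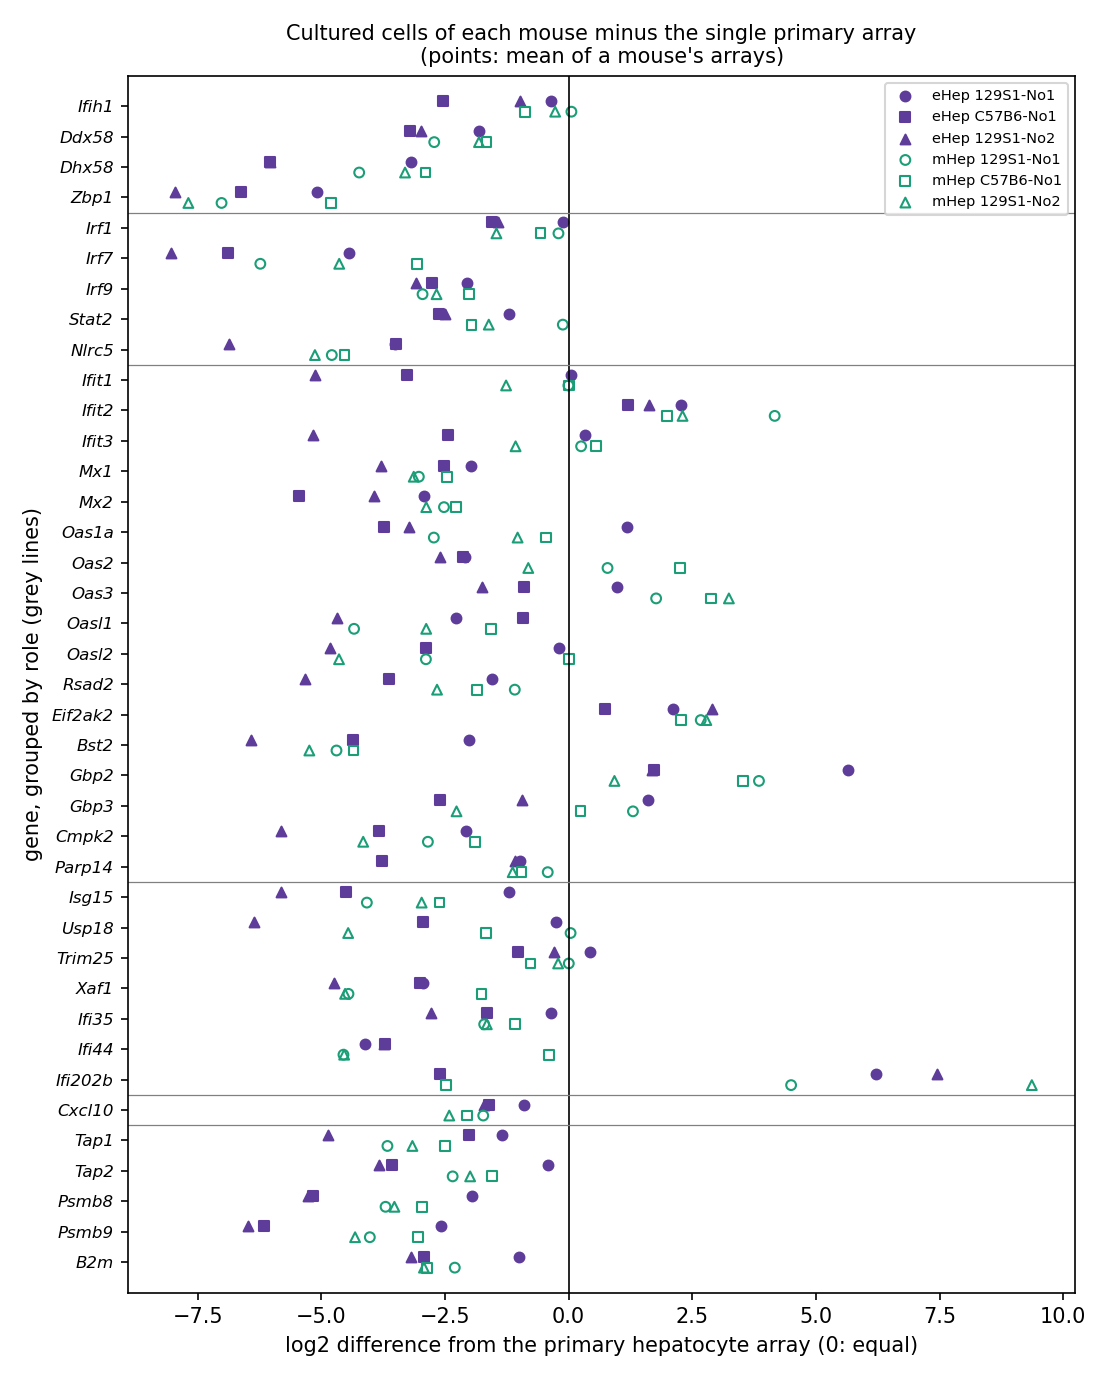
Log2 difference of each member between the cultured cells of each mouse and the single primary hepatocyte array, for eHep (filled, purple) and mHep (open, green), with the shape giving the mouse; 0 means equal to the primary array. Most points lie left of 0, Zbp1 and Irf7 lie farthest left in eHep, and Ifit2, Eif2ak2, Gbp2 and, in the 129S1 mice, Ifi202b lie right of it.

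Ifi202b, a DNA-binding protein of the p200 family, had a pattern of its own. It read 2.09, 2.43 and 1.34 in the eHep of 129S1-No1 and 3.19 in that of 129S1-No2, and -0.14, 0.39 and 0.47 and 5.11 in their mHep. It was not well above background on any of the 6 arrays of C57B6-No1 or on the primary array, which is also from C57B6. In eHep it was at least 94.4-fold lower in C57B6-No1 than in 129S1-No1 (adjusted p = 2.4e-07) and in mHep at least 27.1-fold (adjusted p = 8.14e-07). It entered the test only through 129S1-No1, where it is high, so these values are a description. The groups did not overlap, and the pattern followed the strain labels of the 3 mice and the primary cells. The DNA-response adaptor gene Sting1, not a member, went the other way, at -2.52 ± 0.13 (SD, n = 3 arrays) in the eHep of 129S1-No1, -3.23 in 129S1-No2, 1.93 ± 1.22 in C57B6-No1 and 1.12 on the primary array.

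The members moved together to different degrees. Across the 14 cultured arrays, 28 of 39 members correlated above 0.5 with the median of the others, with a median r of 0.73, against 0.16 for tested genes with the member median. The highest were Ifit1 (0.92), Cmpk2 (0.92), Dhx58 (0.91), Ifit3 (0.90) and Psmb9 (0.89), and the lowest were Ifi202b (-0.07), Oasl1 (0.01), Eif2ak2 (0.16) and Ifit2 (0.21). These arrays share mice and scans, and Mx1, dark on all of them, still had an r of 0.66, so shared background and scaling enter these values. Probes of a gene did not always agree. A second probe of Oas3 changed by -3.51 in 129S1-No1 where the one used changed by 0.79, and a second probe of Trim25 correlated with the one used at 0.15 over 15 arrays. For Ddx58 a probe changed by 0.02 in 129S1-No1 where the one used changed by -0.90, while the others changed by -0.94 and -1.21. The other probes of B2m correlated with the one used at 0.41 and 0.96. Another probe of Oas2 was dark on all 15 arrays.

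The rest of the pathway was read from lists that hold no member. Of 13 interferon ligands, 4 or 5 were bright enough to test in each comparison, and none passed. Ifna7, Ifna9 and Ifnz were well above background on all 14 cultured arrays, with Ifnz at -1.08 ± 0.80 (SD, n = 3 mice) in eHep and -1.52 ± 0.19 in mHep. Another 6 ligands, Ifnb1 and Ifng among them, were dark on all cultured arrays, and all 13 were dark on the primary array. Of 12 genes for receptors, JAK kinases, STATs and their inhibitors, 8 fell within 129S1-No1 and none rose, against 27.1% and 17.3% of tested genes. Within C57B6-No1 3 rose and none fell, against 11.8% and 13.4%. Socs1, which blocks JAK signalling, fell within 129S1-No1 by -3.27 ± 0.56 (adjusted p = 0.00118), and its change differed between the mice by 4.46 ± 0.79 (adjusted p = 0.00433). In eHep the receptor chain gene Ifnar2 was lower in C57B6-No1 than in 129S1-No1 by -2.25 ± 0.24 (adjusted p = 5.5e-05).

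Of 44 other interferon-stimulated genes, 37 were tested on the 12 arrays. In eHep 19 were lower and 2 higher in C57B6-No1 than in 129S1-No1, against 14.9% and 12.5% of tested genes. From eHep to mHep 13 rose and none fell in C57B6-No1, 8 fell and none rose in 129S1-No1, and the change was more positive in C57B6-No1 for 13, against 10.3% of tested genes, and more negative for none. The counts within each mouse stand beside 11.8% of all tested genes that rose in C57B6-No1 and 27.1% that fell in 129S1-No1, and 8 of 37 is no more than the latter. Ifi204, a DNA-binding protein of the p200 family that was well above background on all 14 cultured arrays, rose by 3.16 in C57B6-No1 (adjusted p = 0.000202) and fell in 129S1-No1 (adjusted p = 0.00123), and the changes differed (adjusted p = 0.000187). None of the 34 tested over mouse means passed between mHep and eHep. Against the primary array 9 of 38 tested were lower and 1 higher in eHep, against 9.39% and 5.61% of tested genes. Among the lower were Cxcl9 and Ifitm3. Cxcl9, a CXCR3 ligand that was dark on all eHep arrays, entered the test only through the primary array and was at least 113-fold lower. Ifitm3, which blocks virus entry, differed by -7.20 ± 1.37 (adjusted p = 0.0174).

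Of 21 further genes of MHC class I and its peptide supply, 1 passed between mHep and eHep over the 3 mice. H2-Q1 was at least 14.4-fold higher in mHep (adjusted p = 0.0441), with a level of -0.61 ± 1.68 (SD, n = 3 mice) in mHep and -0.62 on the primary array. It was well above background on 1 of 7 eHep arrays and entered the test only through mHep, where it is high, so this is a description. H2-Q genes are near-identical copies, so signal from a neighbouring copy cannot be told from its own. Within 129S1-No1 10 of the 21 fell and 1 rose, against 27.1% and 17.3% of tested genes. Within C57B6-No1 2 rose and none fell, against 11.8% and 13.4%, so the 2 are no more than that share. In the eHep of C57B6-No1 8 were lower, against 14.9%. Against the primary array 7 of the 21 were lower in eHep, against 9.39% of tested genes, and 1 in mHep, against 5.97%, so the latter is no more than its share. Of 10 MHC class II genes, 4 were dark on all cultured arrays and 7 on the primary array. Of 14 genes of sensing and relay 12 were tested, and 2 were higher and 2 lower in the eHep of C57B6-No1, near the 12.5% and 14.9% of tested genes. Ikbke, a kinase of interferon regulatory factors, was the only gene of this list whose change differed between the mice (2.90 ± 0.59, adjusted p = 0.00897). Among tested genes 10.3% had a more positive change in C57B6-No1.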

How the data were processed

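The 15 scanner files were read with the probe names, positions (mm9) and flags they carry. Per the file headers, they hold scans extracted under a single 1-colour protocol by Feature Extraction, version 10.7.3.1 or 10.7.1.1, and the processed signal is an intensity that was background-subtracted but not scaled between arrays. The value table deposited by the authors holds log2 values with the same median, 4.92, on every array, and correlated with log2 processed signal at 0.972 or more. How it was scaled is not given in the sources used here, and it served as an alternative. Control spots were left out, spots of a probe were averaged, and log2 processed signal was centred on each array's 75th percentile. The members, roles, lists and tests were chosen with earlier results of these data known, and support nothing as independent evidence. All named genes were fitted, and Benjamini-Hochberg adjustment ran over all tested genes.

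Over mouse means, a gene entered the test if, in eHep or in mHep, every array of 2 or more of the 3 mice read its probe as well above background, or if the primary array did so in comparisons with it. For the fits on 12 arrays, a filter not laid down beforehand asked for this on all 3 arrays of any of the 4 groups of 129S1-No1 and C57B6-No1. limma 3.58.1 in R 4.3.3 gave moderated tests at an adjusted p of 0.05, with a log2 difference of at least 1 against the primary array. mHep and eHep were compared on 6 mouse means with mouse as a block. The same mouse paired the media per the labels: eHep and mHep deviations from the group means correlated within a mouse at 0.40, 0.56 and 0.54, and those of different mice at 0.011 at most. A fold is given as "at least" where the lower group was dark or partly dark, with dark readings raised to the dimmest reading that their array called well above background. Scan session (2) and slide (5) come from the file headers. The eHep and mHep arrays of 129S1-No1 lay on different slides, as did those of 129S1-No2. In C57B6-No1 only replicate 3 had both media on the same slide. Values on every array are given for members that passed over mouse means, for the 8 members with the largest difference of the changes, for 1 or 2 members per role and for Ifi202b; list genes are named by the largest difference among those that passed. The scripts were tested on simulated data. Promoter windows came from RefSeq (GRCm38.p6), and no genome was used. The plots used matplotlib 3.10.9. Array number limits the precision. Alternatives tried were normexp background (offset 50), quantile normalization, another 75th percentile, the deposited table, other filters, the mean of a gene's probes, raised dim readings, other blocks, and leaving out arrays, mice or a scan. A gene of the pathway lists and a motif are not reported here.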

Additional observations from a re-analysis of the deposited data

Results flagged for a closer look

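In 19 members the change from eHep to mHep was more positive in C57B6-No1 than in 129S1-No1 by limma's test of the difference of the changes. As log2 differences, these were 7.18 for Oas1a, 5.60 for Irf7, 5.58 for Oasl2, 4.76 for Isg15, 4.55 for Psmb9, 4.20 for Dhx58, 3.62 for Gbp2, 3.32 for Ifit1, 3.15 for Gbp3 and 3.05 for Ifit3. The others were 2.98 for Oas3, 2.76 for Mx2, 2.75 for Xaf1, 2.71 for Cmpk2, 2.69 for Bst2, 2.45 for Ddx58, 2.25 for Parp14, 1.84 for Tap1 and 1.35 for B2m. Adjusted p-values ran from 0.00239 (Dhx58) to 0.0483 (Oasl2). Each mouse is a single animal, and the third mouse, with 1 array per medium, did not enter this test. Within 129S1-No1 medium and slide cannot be told apart, and in C57B6-No1 only replicate 3 had both media on the same slide.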

How the results depend on the processing

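All settings were planned except the later scan only, which was chosen after seeing the data; where a value moved, the cause was not tested. The count of members that passed between mHep and eHep was 0. It became 2 without a filter (2.41% of tested genes passed), 11 with 14 arrays and mouse as a term (34.4%) and 6 with mouse and slide (20.6%). In the earlier scan alone it was 13 (10.4%), in the later 1 (3.22%), and without 1 mouse 0 to 12. Between eHep and primary 5 became 10 without a filter, where 31.1% of tested genes passed, so that count is no more than that share. It was 2 with a strict filter (12.1% of tested genes) and 20 with C57B6-No1 alone (32.7%). Without 1 mouse it was 0 to 14 (2.83% and 15.7%). Between mHep and primary 1 became 4 after quantile normalization and 4 in the authors' table (14% of tested genes passed in each). It became 2 with the mean of all probes (9.34%) and 2 with raised readings (9.36%). Without a filter it was 6 (32.3%), and with C57B6-No1 alone 9 (26.7%). Without 1 mouse it was 0 to 3 (0.672% and 10.3%). None of these counts was above its share. The median of -2.06 became -1.43 with normexp background and -1.48 with the percentile of detected probes. Within 129S1-No1 13 became 24 with scan as a block and 26 with the later scan only, where 65.1% and 67.2% of tested genes passed, so these counts are near those shares. It was 9 to 22 without 1 array, the last without replicate 3 of C57B6-No1 in eHep, where 51.9% of tested genes passed. Within C57B6-No1 16 became 27 with scan as a block, where 38.7% of tested genes passed. The median of 1.78 became 1.13 with normexp background and 1.25 with the later scan only, and without 1 array it was 1.05 to 2.11. For the difference of the changes 19 became 7 with normexp background, where 3.87% of tested genes passed against 16.6% in the main fit. The median became 1.54 there. The count was 29 with scan as a block and 8 to 27 without 1 array, with the shares of the last 2 given above. In eHep between mice the count stayed within 1.5 times of 27 and the median of -1.91 became -1.32 with normexp background. In mHep between mice 11 (27.8% of tested genes passed) became 6 with normexp background (11.3%) and 7 with a strict filter (24.3%). It became 25 with scan blocked, 17 with slide blocked, 26 with the later scan only (share given above) and 6 to 18 without 1 array. The median of 0.57 became 0.062 with normexp background, 1.31 with slide blocked, 1.05 with the later scan only, and 0.15 to 1.05 without 1 array. Tap1 in mHep between mice reversed with normexp background, at -0.032 (adjusted p = 0.972), against 1.17 in the main fit.

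Replicate numbers within a mouse come from the labels, and same-numbered arrays did not deviate together in every pair (r of -0.05, -0.09 and -0.14 in 129S1-No1 and 0.59, -0.10 and 0.69 in C57B6-No1), so they share only a number. With the replicate number as a block, 23 members passed within 129S1-No1, 25 within C57B6-No1 and 28 for the difference of the changes. Of tested genes 57.6% passed within 129S1-No1, so that count is near the share of other genes, and 30.1% within C57B6-No1. Without the mouse as a block (no replicate block), 0 passed between mHep and eHep. No such block could be fitted for levels between mice, since numbers lie within a mouse.

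Limits are 3 mice, of which 1 has a single array per medium, 1 primary array, and dark readings, which bound a level only. Scaling moved the median of all tested genes by over 0.1: within 129S1-No1 from -0.38 to 0.02 and between eHep and primary from -0.19 to 0.28 with the percentile of detected probes.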
